A study of Mus musculus with 6 samples.

Results

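The genes described here encode the RING E3 ligases of Polycomb repressive complex 1 (PRC1) and the subunits that make up its canonical form. They are *Ring1* and *Rnf2* (RING1A and RING1B), *Bmi1* and *Pcgf2* (PCGF4 and PCGF2), *Cbx2*, *Cbx7* and *Cbx8*, and *Phc1*, *Phc2* and *Phc3*. These 10 genes were chosen by name, and all 10 had an entry among the 19233 gene symbols of the table. Nuclear RNA had been sequenced from 6 libraries of RYBPfl/fl;YAF2-/- mouse embryonic stem cells, 3 left untreated (UNT) and 3 exposed to 4-hydroxytamoxifen (OHT) at 800 nM during 96 hr. All 6 libraries therefore lack *Yaf2*, and OHT deletes the floxed *Rybp*. The *Yaf2* deletion was made with Cas9 and the cells were grown from isolated colonies, and the 6 libraries include no OHT-treated cells with unfloxed *Rybp*.

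In every PRC1 complex a RING1A or RING1B protein pairs with 1 PCGF protein, and this dimer places ubiquitin on lysine 119 of histone H2A. In canonical complexes the PCGF partner is PCGF2 or PCGF4, a CBX protein reads H3K27me3 through its chromodomain, and a PHC protein can link complexes together through its SAM domain. RYBP and YAF2 occupy the same face of the RING protein as the CBX proteins, so that a complex holds a CBX protein or RYBP/YAF2 and not both, and variant PRC1 is the form with RYBP or YAF2. Mouse embryonic stem cells are known to rely on CBX7 as their main canonical CBX protein.

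The value examined is the base mean of each transcript entry, the authors' mean of the normalised read count over UNT and OHT libraries together. It carries no SD, no n per group and no error, so differences between genes are given as sizes only and could not be set against a spread between replicates. The table also holds the authors' own comparison of OHT with UNT, which was not used here, so no difference between OHT and UNT is given for any gene, and each level below is an average over cells with and without OHT treatment. Depth per library was not analysed here. Of the 20633 entries, 19198 had a base mean above 0 and serve as the reference for percentiles, with a median base mean of 306.7. Levels of different genes were compared per kb of gene span, introns included. Where 1 entry of a gene contained another (826 pairs with a base mean of at least 10 in the larger), the longer entry had at least as high a base mean in 793 pairs (96.0%). Among the 183 pairs whose longer entry held fewer exon bases this was so in 172 pairs (94.0%). Within a gene, the base mean thus followed the span of an entry rather than its exon length, as when reads are counted over introns too. Across the 18871 entries above 0 with a length, it did not favour the span. There the rank correlation of base mean was 0.37 with span and 0.38 with exon length. The levels are those of nuclear RNA and not of protein.

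The labels were examined on the targeted genes and on cell type markers. *Yaf2* had a base mean of 3.24 at percentile 11.7, and 0.062 normalised counts per kb of span. *Rybp* had a base mean of 13983 at percentile 99.3, and 237.3 normalised counts per kb, but as a mean over UNT and OHT this cannot show the deletion. All 9 embryonic stem cell markers with an entry lay between percentiles 83.9 and 99.3 by base mean, among them *Pou5f1*, *Sox2* and *Nanog*. Of 6 primitive endoderm, 5 trophoblast, 4 neural and 5 fibroblast markers, 1 in each list exceeded the median base mean of all entries. The highest of these was the trophoblast marker *Tfap2c* at percentile 73.0, and base means over these lists ran from 1.77 to 1131, with no marker at 0.

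Levels of the canonical PRC1 genes covered most of the range of the table. By base mean, 7 of the 10 genes exceeded the median of all entries above 0, and the median of the 10 was 1411 normalised counts. *Phc1* was highest with a base mean of 6555 at percentile 96.5, and *Cbx8* was lowest with 4.58 at percentile 13.6, a ratio of 1431. Between these, *Cbx7* had 3038 normalised counts (percentile 89.1), *Rnf2* 2493 (percentile 86.3), *Phc3* 1842 (percentile 81.8), *Pcgf2* 1478 (percentile 77.9) and *Phc2* 1343 (percentile 76.1). *Cbx2* stood at the middle of the table with 317.7 normalised counts (percentile 50.6), and *Ring1* with 189.9 (percentile 43.4) and *Bmi1* with 87.5 (percentile 35.0) fell below it. Each of the 4 subunit classes thus had a gene at percentile 77.9 or above, and the RING, PCGF and CBX classes also had a gene below the median. These places are by base mean, without correction for length. Per kb of span both RING genes lay above the median of all entries, *Ring1* at percentile 73.9. The PHC class had a gene just below that median, *Phc2* at percentile 49.6. Per kb of exon this turned, with *Ring1* below the median at percentile 46.4 and *Phc2* above it at percentile 69.7. *Cbx2* was also below it per kb of exon, at percentile 44.9.

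**Figure D1:**
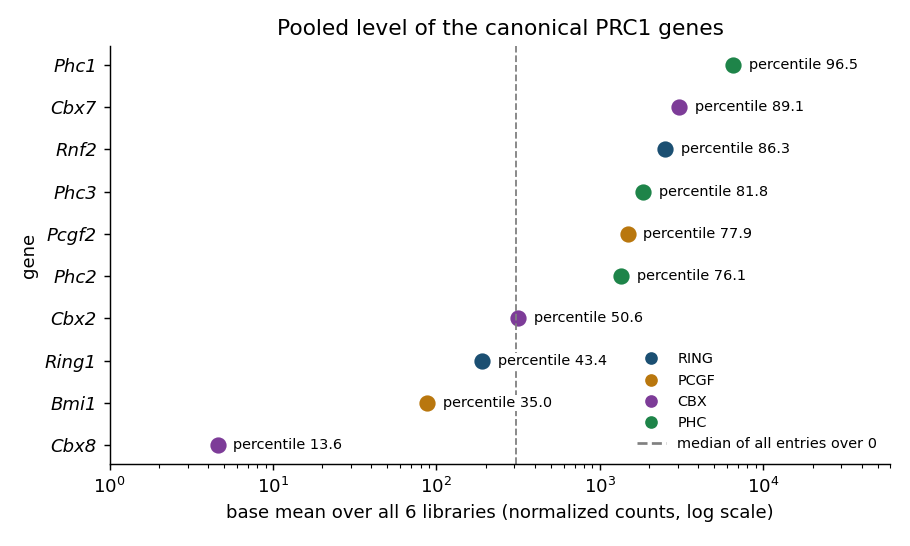
Base mean over all 6 libraries (horizontal axis, normalised counts, log scale) of each canonical PRC1 gene, coloured by subunit class, with its percentile among entries above 0 and the median of those entries as a dashed line. *Phc1*, *Cbx7* and *Rnf2* lie furthest to the right, and *Ring1*, *Bmi1* and *Cbx8* lie left of the median of 306.7.

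The RING E3 ligases differed far more in read count than in level per kb. *Rnf2* (chromosome 1 of mm10, minus strand, 151469406 to 151500955) encodes RING1B and spans 31.6 kb, of which 10.0% is exon. *Ring1* (chromosome 17, minus strand, 34020792 to 34024680) encodes RING1A and spans 3.89 kb, of which 52.3% is exon. Per kb of span, *Rnf2* had 79.0 normalised counts (percentile 83.3) and *Ring1* had 48.8 (percentile 73.9), a ratio of 1.62. Per kb of exon the ratio was 8.45, with 789.0 for *Rnf2* and 93.4 for *Ring1*, and the uncorrected ratio of base means was 13.1. *Rnf2* was the higher of the pair on each scale, but the size of the gap depends on how the short, exon-rich *Ring1* gene is scaled. Ranked only against entries with a span within 2-fold of its own, *Ring1* moved from percentile 43.4 to percentile 62.4.

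Of the PCGF genes of canonical PRC1, *Pcgf2* was the higher on each scale. *Pcgf2* (chromosome 11, minus strand, 97688823 to 97699384; 10.6 kb) encodes PCGF2, also known as MEL18, and had 140.0 normalised counts per kb of span at percentile 91.7. *Bmi1* (chromosome 2, plus strand, 18677018 to 18686629; 9.61 kb) encodes PCGF4, a regulator of stem cell self-renewal in adult tissues, and had 9.10 at percentile 43.6. The spans of these paralogs are alike, and the ratio of *Pcgf2* to *Bmi1* was 15.4 per kb of span, 24.4 per kb of exon and 16.9 uncorrected. *Pcgf2* made up 93.9% of the summed level of the pair per kb of span.

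Among the 3 CBX genes described here, *Cbx7* had the highest level and *Cbx8* the lowest, on each scale. *Cbx6* had no entry, so its level is not known. *Cbx7* (chromosome 15, minus strand, 79915807 to 79932652; 16.8 kb) had 180.3 normalised counts per kb of span at percentile 93.9. *Cbx2* (chromosome 11, plus strand, 119022962 to 119031270; 8.31 kb), whose product can compact chromatin, had 38.2 at percentile 68.8. *Cbx8* (chromosome 11, minus strand, 119036305 to 119040969; 4.67 kb) had 0.98 at percentile 22.2. *Cbx7* was 4.72 times *Cbx2* per kb of span and 183.6 times *Cbx8*, and it made up 82.1% of the summed level of the 3 genes. A base mean of 4.58 for *Cbx8* rests on few reads per library, so that the ratio to *Cbx8* is uncertain and its counting error could not be computed.

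*Cbx2* and *Cbx8* lie near each other on chromosome 11, on opposite strands with 5.03 kb between them. Levels of these neighbours were unlike, at 38.2 normalised counts per kb of span for *Cbx2* and 0.98 for *Cbx8*.

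The PHC genes were the class with every member above the median base mean. This did not hold per kb of span, but it held per kb of exon. *Phc1* (chromosome 6, minus strand, 122317850 to 122339645; 21.8 kb) had the highest level of the 10 genes per kb of span, 300.7 normalised counts at percentile 97.0. *Phc3* (chromosome 3, minus strand, 30907311 to 30969399; 62.1 kb) had 29.7 at percentile 63.6. *Phc2* (chromosome 4, plus strand, 128654702 to 128752881; 98.2 kb) had 13.7 at percentile 49.6, next to the median of 14.0 for all entries. By exon length *Phc2* had 340.0 per kb at percentile 69.7, above the median of 118.8. *Phc1* was 22.0 times *Phc2* and 10.1 times *Phc3* per kb of span. Per kb of exon these ratios fell to 5.34 and 2.85, since *Phc2* and *Phc3* are 4.02% and 4.66% exon and *Phc1* is 16.6% exon.

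**Figure D2:**
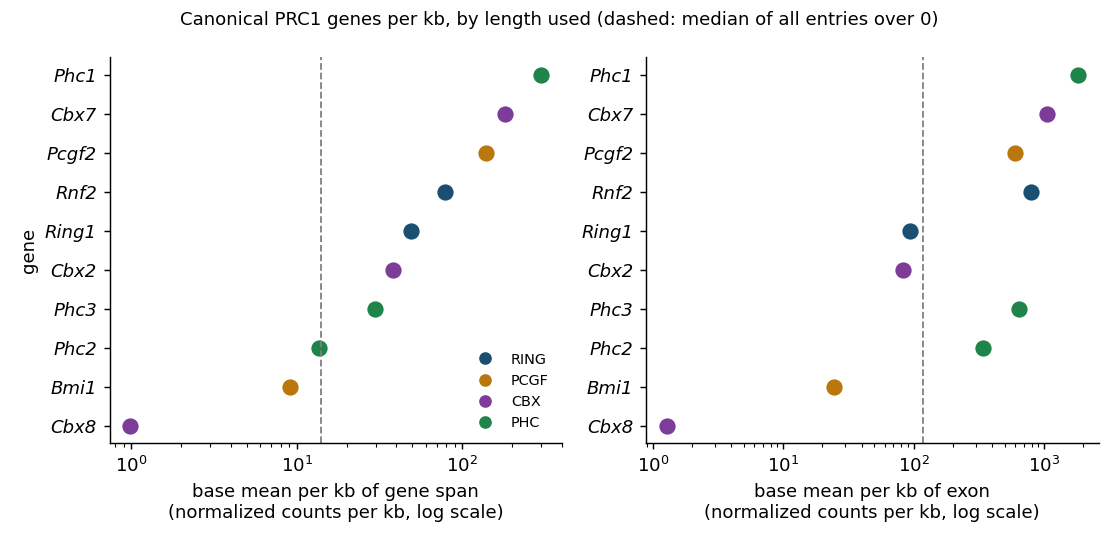
Base mean of each canonical PRC1 gene per kb of gene span (left) and per kb of exon (right), both in normalised counts per kb on log axes, with genes in the order of the left panel, colours for subunit classes and the median of all entries above 0 as dashed lines. *Phc1* and *Cbx7* lead and *Bmi1* and *Cbx8* trail in both panels, whereas *Phc2* and *Phc3* pass *Ring1* and *Cbx2* on the right.

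In order of level per kb of span the genes were *Phc1*, *Cbx7*, *Pcgf2*, *Rnf2*, *Ring1*, *Cbx2*, *Phc3*, *Phc2*, *Bmi1* and *Cbx8*, from 300.7 to 0.98. Of these, 7 lay above the median of all entries. Per kb of exon the first and last 2 places were held by the same genes, and 6 genes lay above the median. The places between them changed. *Rnf2* and *Pcgf2* moved from places 4 and 3 to places 3 and 5, *Ring1* moved from place 5 to place 7, *Cbx2* from 6 to 8, *Phc3* from 7 to 4 and *Phc2* from 8 to 6.

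*Phc2* alone of the 10 genes had more than 1 entry, and its 3 entries share their end while starting at different sites. The longest entry, from 128654702, had a base mean of 1343, the middle entry, from 128688795, had 1119, and the shortest, from 128727585, had 981.7. The shortest entry takes up 25.8% of the longest span but held 73.1% of its base mean. Differences between the nested entries give the level of each stretch if a read pair is counted on every entry whose span it falls in. Such counting could not leave a longer entry lower than the entry it contains. With the spans used here the longer entry was at least as high in 793 of 826 nested pairs, and lower in the rest. The assumption thus did not hold for every gene, and it was not tested for *Phc2*. On that assumption the 34.1 kb from the first to the second start had 6.57 normalised counts per kb, the 38.8 kb from the second to the third start had 3.53, and the 25.3 kb after the third start had 38.8. The stretch after the third start was thus 5.91 times as dense as the first and 11.0 times as dense as the second. It is also richer in exons (10.0% of its bases, against 0.34% and 4.22%), and the part of exon reads in its higher level was not tested. Per kb of its shortest entry, *Phc2* would stand between *Cbx2* and *Ring1* in the order of levels rather than below *Phc3*.

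**Figure D3:**
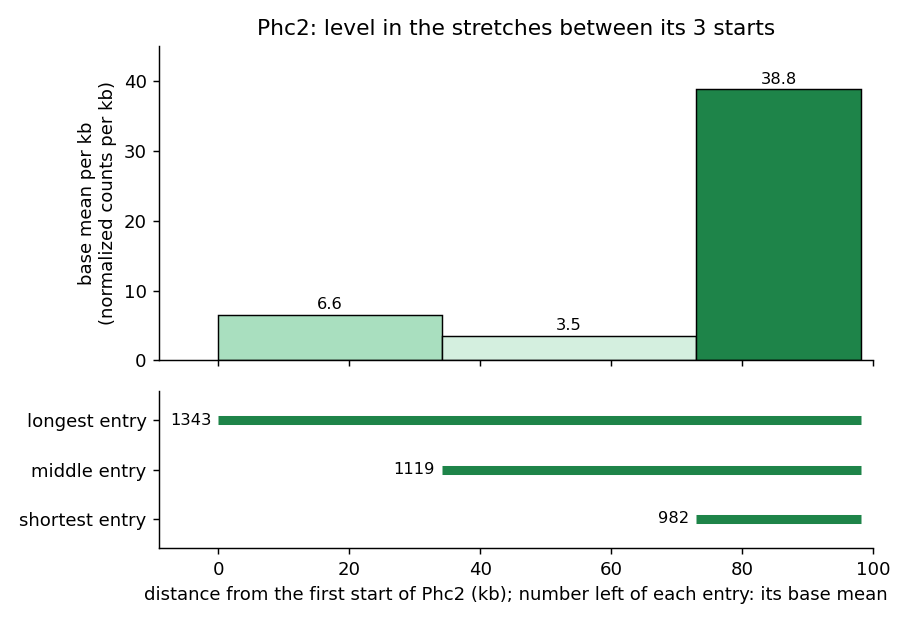
Upper panel, base mean per kb of *Phc2* (normalised counts per kb, from 0) in the stretches between its 3 starts, plotted by distance from the first start in kb. Lower panel, the spans of the 3 entries with their base means of 1343, 1119 and 982: the mean over the stretch after the third start is 38.8 normalised counts per kb, beside 6.57 and 3.53 for the stretches before it.

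The sequences before these starts are shown because they bound the *Phc2* stretches compared above, and because paralogs with unlike levels can then be read side by side. Each line gives the 250 bases upstream of a RefSeq gene start (GRCm38.p6, the build of mm10), 5′ to 3′ on the strand of the gene, with CpG dinucleotides in capitals. The start in the RefSeq promoter table lay 0, 57 and 14 bp from the start of the corresponding *Phc2* entry.
Phc2, the first start, chr4:128654452-128654701, plus strand: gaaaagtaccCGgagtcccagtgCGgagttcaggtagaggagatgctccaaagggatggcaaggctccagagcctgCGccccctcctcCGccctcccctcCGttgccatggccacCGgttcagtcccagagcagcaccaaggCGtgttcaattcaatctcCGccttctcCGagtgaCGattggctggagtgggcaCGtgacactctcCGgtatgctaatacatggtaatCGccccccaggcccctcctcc
Phc2, the second start, chr4:128688488-128688737, plus strand: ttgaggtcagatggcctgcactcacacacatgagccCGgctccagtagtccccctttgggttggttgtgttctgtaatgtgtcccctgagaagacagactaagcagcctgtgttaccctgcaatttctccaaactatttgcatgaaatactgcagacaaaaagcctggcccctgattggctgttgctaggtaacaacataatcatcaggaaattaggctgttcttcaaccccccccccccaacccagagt
Phc2, the third start, chr4:128727321-128727570, plus strand: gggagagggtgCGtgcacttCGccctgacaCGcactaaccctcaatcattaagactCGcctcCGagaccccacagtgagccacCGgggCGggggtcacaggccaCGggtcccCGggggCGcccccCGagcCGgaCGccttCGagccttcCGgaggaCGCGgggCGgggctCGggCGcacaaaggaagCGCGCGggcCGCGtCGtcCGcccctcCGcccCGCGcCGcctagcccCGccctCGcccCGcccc
Phc1, chr6:122340228-122340477, minus strand: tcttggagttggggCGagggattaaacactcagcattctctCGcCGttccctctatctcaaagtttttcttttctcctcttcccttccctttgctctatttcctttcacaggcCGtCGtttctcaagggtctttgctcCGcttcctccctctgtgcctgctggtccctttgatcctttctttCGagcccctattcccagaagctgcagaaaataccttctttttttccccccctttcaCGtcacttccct
Pcgf2, chr11:97699649-97699898, minus strand: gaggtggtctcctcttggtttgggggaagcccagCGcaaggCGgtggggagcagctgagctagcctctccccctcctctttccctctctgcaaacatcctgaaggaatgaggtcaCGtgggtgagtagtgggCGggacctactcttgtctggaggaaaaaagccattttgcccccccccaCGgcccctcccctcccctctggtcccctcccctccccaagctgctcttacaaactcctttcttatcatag
Bmi1, chr2:18676768-18677017, plus strand: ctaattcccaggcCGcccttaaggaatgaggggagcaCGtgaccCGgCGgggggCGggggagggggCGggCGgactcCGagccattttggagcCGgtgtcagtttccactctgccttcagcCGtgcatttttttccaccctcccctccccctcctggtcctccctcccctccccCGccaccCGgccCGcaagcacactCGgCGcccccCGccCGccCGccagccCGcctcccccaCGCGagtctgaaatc
Cbx7, chr15:79932647-79932896, minus strand: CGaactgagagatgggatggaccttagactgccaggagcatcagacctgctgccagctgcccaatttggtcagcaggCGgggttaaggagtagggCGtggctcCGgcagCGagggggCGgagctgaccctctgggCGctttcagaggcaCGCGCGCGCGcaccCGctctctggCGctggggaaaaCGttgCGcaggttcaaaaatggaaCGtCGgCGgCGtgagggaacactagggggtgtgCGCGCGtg
Cbx8, chr11:119040914-119041163, minus strand: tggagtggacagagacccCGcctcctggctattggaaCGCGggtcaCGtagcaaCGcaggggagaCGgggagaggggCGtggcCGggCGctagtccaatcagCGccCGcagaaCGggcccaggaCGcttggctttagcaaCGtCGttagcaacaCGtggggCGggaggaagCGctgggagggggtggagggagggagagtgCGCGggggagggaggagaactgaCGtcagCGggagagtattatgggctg

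Promoter sequences were found for 9 of the 10 genes, all except *Cbx2*, at 11 starts. The 250 bases before the third *Phc2* start held 34 CpG dinucleotides, at percentile 96.8 among the 32851 promoters of the RefSeq table. Before the first *Phc2* start there were 13, and before the second there was 1, at percentile 13.3. Given the counting assumed above, the densest *Phc2* stretch follows the start with the most CpG dinucleotides and the least dense follows the start with the fewest. The later stretches also lie within the entries begun further upstream, so their levels are not the output of the start before them alone. Across genes the order of level and CpG number was different. *Phc1*, with the highest level, had 8 CpG dinucleotides and *Pcgf2* had 5, beside a median of 6 for all promoters, whereas *Bmi1* had 21, *Cbx8* 22, *Cbx7* 23, *Rnf2* 20, *Phc3* 12 and *Ring1* 30. *Cbx7* and *Cbx8*, which differ by 183.6 times in level per kb, thus had nearly the same number. For *Phc1* and *Pcgf2* the table's start lay 582 bp and 264 bp from that of the counted entry, so that other sequence lies directly before the counted span. In 9 of the 11 windows the number exceeded the median of all promoters.

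Few annotated genes overlap the canonical PRC1 genes. In the GENCODE annotation, *Rnf2* shares 9.60% of its span with *Gm36527*, annotated as still to be experimentally verified, on its own strand and *Phc3* shares 0.50% with *9530022L04Rik*, so that reads there cannot be told apart. *Cbx7* overlaps *Apobec3* on the opposite strand by 100 bp. No annotated gene overlaps the other 7 genes.

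The 10 genes were set beside the other Polycomb genes. The 14 variant PRC1 genes with an entry had a median of 41.2 normalised counts per kb of span, against 43.5 for the 10 genes. Of the 14, 13 lay above the median of all entries. With exon length the medians were 379.5 per kb for variant PRC1 and 467.5 for the 10 genes. The order turned by base mean, with medians of 1529 for variant PRC1 and 1411 for the 10 genes. *Pcgf1*, *Pcgf3*, *Pcgf5* and *Pcgf6*, the PCGF genes of variant PRC1 alone, had 43.0, 46.8, 14.5 and 82.3 per kb of span. All 4 lay between *Bmi1* with 9.10 and *Pcgf2* with 140.0. Per the study, PCGF2 and PCGF4 can form variant complexes as well. Per kb of exon, *Pcgf5* with 744.2 and *Pcgf6* with 659.1 exceeded *Pcgf2* with 594.9, and *Pcgf1* and *Pcgf3* did not. By base mean *Pcgf3* with 2143 exceeded *Pcgf2* with 1478, and the others did not. *Bmi1* was the lowest of these genes on each scale. Among the other canonical PRC1 genes with an entry, *Scmh1* had 32.3 normalised counts per kb of span and *Scml2* 1.74. The 12 PRC2 genes, which encode the H3K27 methyltransferase complex and its cofactors, had a median of 185.3, and *Phc1* was the 1 canonical PRC1 gene above it. *Rybp*, whose product competes with the CBX proteins, had 237.3 normalised counts per kb of span, between *Phc1* with 300.7 and *Cbx7* with 180.3. On the other scales *Rybp* lay above *Phc1*, the highest of the 10 genes. It had 3105 per kb of exon against 1815, and a base mean of 13983 against 6555. The *Rybp* values are means over UNT libraries and the OHT libraries in which *Rybp* is deleted. Its place in untreated cells alone is thus not given by them and may be higher. The 10 genes include *Ring1* with 48.8 and *Rnf2* with 79.0 per kb of span, whose products serve variant PRC1 as well. The lists differ in length and composition, and no test was made of their difference.

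**Figure D4:**
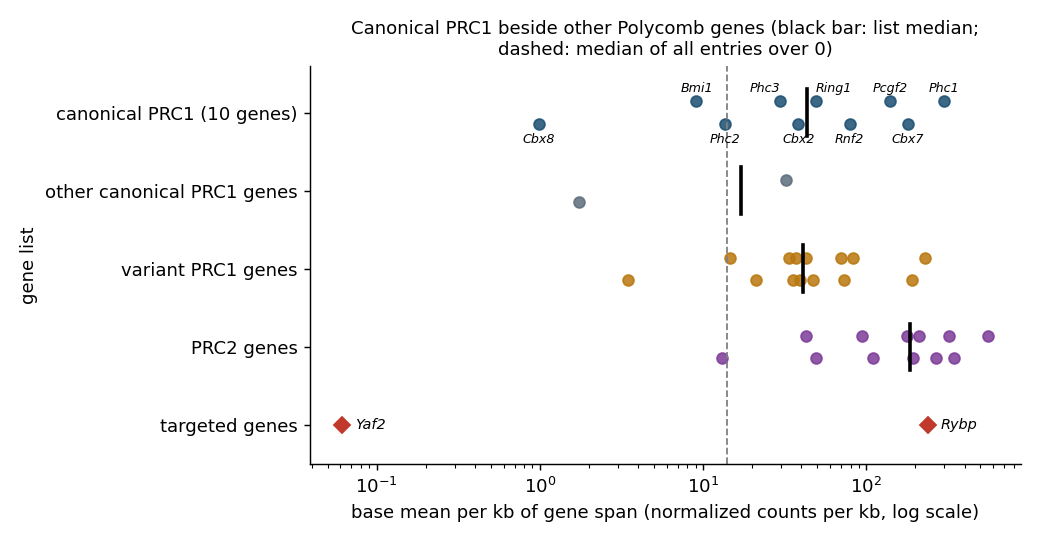
Base mean per kb of gene span (horizontal axis, normalised counts per kb, log scale) for the 10 canonical PRC1 genes, named, and for other canonical PRC1, variant PRC1 and PRC2 genes, 1 point per gene, with list medians as black bars, *Yaf2* and *Rybp* as diamonds and the median of all entries above 0 as a dashed line. The canonical genes spread from 0.98 to 300.7 around a median of 43.5, close to the 41.2 of variant PRC1 genes and below the 185.3 of PRC2 genes. *Ring1* and *Rnf2*, counted among the 10, serve variant PRC1 as well.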

How the data were processed

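Nuclear RNA was depleted of rRNA, and directional libraries were sequenced with 40 bp paired-end reads. Per the study's methods, the authors discarded rRNA reads with bowtie2 and mapped the rest to mm10 with STAR, followed by bowtie2 for reads left unmapped. A custom script then assigned read pairs to RefSeq genes filtered for size and mappability, and the authors ran DESeq2 at default settings. Tool versions are not given in the sources used here. The deposited base mean is a signal, the authors' mean over all 6 libraries of counts divided by library size factors. The 6 other value columns of the table hold the authors' own comparison (log2 fold change, its standard error, statistic, p-value, adjusted p-value and call) and were not used. No values per library were analysed, so the test of OHT against UNT planned for counts was not run. The base mean alone gives neither the depth per library nor the spread between replicates.

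Gene symbols came from RefSeq on GRCm38.p6 (20446 of 20633 entries). Span and exon length came from the GENCODE vM21 transcript matched to each RefSeq identifier (20261 entries), on the coordinates of mm10, and may differ slightly from the authors' gene models. For a gene with several entries the one with the highest base mean was kept. Percentiles are among the 19198 entries above 0 (18871 with a length for values per kb). Steps were tested on simulated data. Promoter sequences are from RefSeq, and CpG dinucleotides were counted in the 250 bases before each start. The text names all 10 genes, the targeted genes and other Polycomb genes by list. Some genes under this rule are not reported here. The genes and lists were chosen with earlier results of these data known. Python 3.11.15, numpy 2.4.6, pandas 2.3.3 and matplotlib 3.10.9 were used. The alternatives were other reference sets for percentiles, exon length and no length correction.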

Additional observations from a re-analysis of the deposited data

How the results depend on the processing

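No paired analysis was possible because the value used, the base mean, is pooled over all libraries, and the columns of the authors' own comparison were left unused by choice. Fits on counts, the replicate block and leaving out each replicate were not run for the same reason. The number of the 10 genes above percentile 50 by base mean was 7, and it was 7 with entries at 0 included, with 1 entry per gene and with the mean over a gene's entries. It was 6 with a base mean minimum of 10 and 8 among entries of like span, a setting chosen after seeing the data. Per kb it was 7, 6 with exon length and 7 with a base mean minimum of 10. Each paralog ratio kept its direction and changed in size. With exon length the ratio was 8.45 for *Rnf2* to *Ring1*, 24.4 for *Pcgf2* to *Bmi1*, 12.6 for *Cbx7* to *Cbx2*, 818.7 for *Cbx7* to *Cbx8*, 5.34 for *Phc1* to *Phc2* and 2.85 for *Phc1* to *Phc3*. With no length correction these were 13.1, 16.9, 9.56, 663.0, 4.88 and 3.56. Over the percentile settings for base mean, *Ring1* ranged from percentile 30.5 to 62.4 and *Cbx2* from 39.3 to 60.2, crossing the middle of the table, and the other 8 genes did not cross it. Depth limits *Cbx8* most, whose base mean of 4.58 is under the minimum of 10.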

Other observations

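The letters CACGTG and TGACGTCA, which each read the same on both strands, were looked for after the sequences had been seen. The letters CACGTG occur in the 250 bases before 5 of the 11 starts, 1 each in *Bmi1*, *Pcgf2*, *Cbx8*, *Phc2* (at its first start) and *Phc3*. The first base of the match lies 215, 137, 98, 57 and 82 bp before the start, respectively. Of all promoters in RefSeq, 6.02% hold CACGTG, and 9.09% of those with more than 6 CpG dinucleotides do. The letters TGACGTCA occur before a start of 1 gene, *Cbx8*, and in 1.55% of all promoters. A match is not a site of binding, the genes that hold CACGTG include *Cbx8*, in place 10 of 10 by level per kb of span, and *Pcgf2*, in place 3 per kb of span and place 5 per kb of exon, and no test was made on a pattern noticed in the same sequences.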
